A study of Mus musculus with 18 samples.

Results

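Expression of 10 genes of the TGF-beta pathway was followed through the maturation of thymic invariant natural killer T (iNKT) cells in wild-type mice and in mice that lack the Hippo kinase Mst1 in T cells. The genes were the ligands Tgfb1 and Tgfb3, the receptors Tgfbr1, Tgfbr2 and Tgfbr3, the signal carriers Smad2 and Smad3, and Smad7, Skil and Wfikkn2, whose products restrain signalling by the family or bind its ligands. Each was taken from probe sets annotated with that gene symbol alone, the brightest where a gene had several. All 10 genes had 1 such probe set, all 10 passed the filter on dim signal, and they are 10 of the 13034 genes tested. Values are log2 probe set intensities, so a difference of 1 is a doubling. Levels of different genes are not compared, because probe sets differ in how brightly they report.

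The study hybridised 18 microarrays, 3 replicates for each of 6 groups of cells sorted from the thymus of C57BL/6 mice. The WT groups and the Mst1KO groups, which carry Cd4Cre and Mst1fl/fl, were each sorted at stages S1, S2 and S3. All cells carried a T cell receptor beta chain, bound a CD1d tetramer loaded with PBS57, the lipid antigen recognised by iNKT cells, and lacked CD24. S1 cells were CD44- NK1.1-, S2 cells CD44+ NK1.1- and S3 cells CD44+ NK1.1+, which is the order of maturation. The Cd4 promoter drives Cre in developing T cells, so its activity is not limited to iNKT cells. CD8 microbeads were used on the thymocytes before the sort. The labels do not give the age of the mice, whether WT mice carried Cre, or whether a replicate number stands for a mouse. A p-value here therefore gauges variation among arrays of the same group, part or all of which may be technical. That variation was pooled over the 6 groups for each gene and moderated across genes. A gene thus has the same SE in each stage or genotype comparison. With 3 arrays a group, their number limits the precision.

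TGF-beta is secreted in a latent complex and, once freed, brings together its type II receptor, Tgfbr2, and its type I receptor, Tgfbr1. Tgfbr1 then phosphorylates Smad2 and Smad3, which enter the nucleus with Smad4 and act on target genes, while Smad7, itself a target, acts at the receptor to end the signal. In the thymus the pathway is known to act on the survival and maturation of iNKT cells.

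The gene symbol of the deleted kinase is Stk4, whose probe set checks the labels only if it lies in the deleted part, which no source used here states. Stk4 read 8.10, 7.90 and 7.70 at WT S1 and 7.56, 7.60 and 7.67 at Mst1KO S1. At S2 it read 7.91, 7.73 and 7.83 in WT and 7.54, 7.49 and 7.40 in Mst1KO, and at S3 it read 7.80, 8.20 and 8.13 in WT and 7.67, 7.74 and 7.56 in Mst1KO. The Mst1KO minus WT difference of Stk4 was -0.29 at S1, -0.35 at S2 and -0.39 at S3, each with an SE of 0.11. No Mst1KO array reached the level of a WT array of its stage, but none of these differences passed the test across all genes (limma, adjusted p = 0.34, 0.173 and 0.0767). Throughout, a difference passed, or was called, at a Benjamini-Hochberg adjusted p under 0.05 over all 13034 genes. Of 8 genes listed for iNKT and T cells, 6 to 8 were above the array median on every array of each group. These 8 include Cd24a, the gene of the CD24 that the sort excluded, so the count is not of iNKT markers alone. Cd24a rose from a mean of 4.34 at S2 to 5.16 at S3 in WT and from 4.40 to 5.14 in Mst1KO. Cd3e and Zbtb16, the transcription factor that defines iNKT cells, were at 9.86 or more on all arrays. The NK1.1 gene Klrb1c was at 8.39 or more in S3 and at 5.45 or less in S1 and S2, as the sort gate sets. Array medians lay between 4.81 and 4.93, and arrays of a group correlated at 0.976 to 0.986 over all genes.

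The promoters of 3 members are shown because their genes moved with maturation in opposite directions in WT, Wfikkn2 down and Tgfbr1 and Tgfbr2 up. Each is the 250 bases before a RefSeq transcription start (GRCm38.p6), 5′ to 3′ on the strand of the gene, with matches to the motifs searched in capitals. The windows are chr11:94242580-94242829 (minus strand) for Wfikkn2, chr9:116175364-116175613 (minus strand) for Tgfbr2 and chr4:47352972-47353221 (plus strand) for the first of 2 Tgfbr1 starts.
Wfikkn2: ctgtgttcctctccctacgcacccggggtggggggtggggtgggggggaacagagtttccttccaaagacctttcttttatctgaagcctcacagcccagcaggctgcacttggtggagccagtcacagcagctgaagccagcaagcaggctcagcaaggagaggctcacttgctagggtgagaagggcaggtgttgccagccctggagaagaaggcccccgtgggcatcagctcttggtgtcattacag
Tgfbr2: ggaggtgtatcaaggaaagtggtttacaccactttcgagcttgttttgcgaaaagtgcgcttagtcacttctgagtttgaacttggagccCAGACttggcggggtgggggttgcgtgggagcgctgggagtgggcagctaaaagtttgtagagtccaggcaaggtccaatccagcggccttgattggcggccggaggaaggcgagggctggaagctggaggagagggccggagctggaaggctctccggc
Tgfbr1: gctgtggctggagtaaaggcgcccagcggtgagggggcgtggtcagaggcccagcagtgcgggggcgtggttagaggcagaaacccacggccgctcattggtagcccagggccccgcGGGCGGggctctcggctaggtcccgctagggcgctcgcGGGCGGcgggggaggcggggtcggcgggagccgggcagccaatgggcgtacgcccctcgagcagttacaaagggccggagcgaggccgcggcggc
Searched on both strands were the SMAD box CAGAC, the TEAD motif GGAATG, the RUNX motif TGTGGT, the T-box motif GTGTGA and the Sp and KLF motif GGGCGG. The Wfikkn2 window held none of them, the Tgfbr2 window held 1 CAGAC that begins 160 bases before the start, and the Tgfbr1 window held 2 GGGCGG that begin 133 and 95 bases before it. The window of the second Tgfbr1 start, not shown, held 1 CAGAC that begins 203 bases before that start and no GGGCGG, with a GC content of 52.8%. Among 32851 windows of this length, 42.2% held CAGAC, 12.6% GGAATG, 14.0% TGTGGT, 12.3% GTGTGA and 32.7% GGGCGG. GC content was 59.6% for Wfikkn2, 58.4% for Tgfbr2 and 74.8% for Tgfbr1, against a median of 52.4% over those 32851 windows. Promoter windows were read for 5 of the 10 members. None was read for Tgfb3, Tgfbr3, Smad2, Smad7 or Skil, and whether the reference holds promoters of these genes was not tested.

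Of the ligands, Tgfb1, the main TGF-beta of lymphocytes, passed no test and Tgfb3 fell with maturation. Tgfb1 read 9.58, 9.71 and 9.96 on the WT S1 arrays, 9.78, 9.75 and 10.19 at S2, then 9.85, 9.92 and 9.77 at S3. The Mst1KO arrays read 9.99, 9.92 and 9.91 at S1, 9.97, 10.04 and 9.88 at S2, then 9.89, 9.96 and 10.06 at S3. Each group overlapped its neighbour in the order of means, from WT S1 (9.75 ± 0.19, SD, n = 3) up to Mst1KO S3 (9.97 ± 0.08, SD, n = 3), a range of 0.22 that is smaller than that of all but 13.6% of genes. No stage or genotype difference of Tgfb1 passed the test, and the S3 genotype difference of 0.12 ± 0.12 (SE) has a 95% interval of -0.13 to 0.37.

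Tgfb3 in WT read 6.76, 6.68 and 7.09 at S1, 6.96, 7.20 and 7.05 at S2, then 5.42, 5.42 and 5.23 at S3. Mst1KO arrays gave 7.11, 6.77 and 6.61 at S1, 6.26, 6.24 and 7.00 at S2, then 5.99, 5.55 and 5.21 at S3. In both genotypes the S3 arrays lay below every S1 and S2 array. From S2 to S3 it fell 3.28-fold in WT (log2 difference -1.71 ± 0.21, SE, adjusted p = 1.23e-05) and 1.89-fold in Mst1KO (-0.92 ± 0.21, adjusted p = 0.00554). These changes differed by 0.80 ± 0.30, which did not pass the test (adjusted p = 0.29), and the Mst1KO minus WT difference of -0.57 ± 0.21 at S2 did not either (adjusted p = 0.227). In the order of group means, S3 of WT and of Mst1KO overlapped each other, and the S1 and S2 groups overlapped their neighbours.

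The signalling receptors Tgfbr1 and Tgfbr2 were both higher at S3 than at S1 in WT. Tgfbr1, the kinase that acts on the SMADs, read 6.32, 6.07 and 6.15 at WT S1, 6.17, 5.91 and 6.20 at S2, then 6.90, 6.67 and 7.01 at S3. Tgfbr1 in Mst1KO was at 6.19, 5.70 and 6.08 at S1, 5.85, 5.73 and 6.21 at S2, then 6.56, 6.86 and 6.33 at S3. The S3 arrays lay above all S1 and S2 arrays in each genotype, and S3 of both genotypes overlapped. Tgfbr1 rose 1.7-fold from S2 to S3 in WT (0.76 ± 0.16, SE, adjusted p = 0.00224) and 1.57-fold in Mst1KO (0.65 ± 0.16, adjusted p = 0.00974). The Mst1KO change lost the call without replicate 2 of Mst1KO S2 (0.55, adjusted p = 0.0521) or replicate 2 of Mst1KO S3 (0.51, adjusted p = 0.059). Likewise, the S3 against S1 rise of 0.59 ± 0.16 in Mst1KO (adjusted p = 0.0109) lost it without replicate 2 of Mst1KO S1 (0.45, adjusted p = 0.0678) or of Mst1KO S3 (0.46, adjusted p = 0.067). Differences between genotypes were -0.19, -0.16 and -0.27 at S1, S2 and S3, none of which passed (adjusted p = 0.714, 0.733 and 0.43).

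Tgfbr2, the ligand-binding receptor, had tight replicates. In WT it read 8.65, 8.69 and 8.69 at S1, 8.70, 8.66 and 8.54 at S2, then 9.02, 8.96 and 9.01 at S3. In Mst1KO it read 8.99, 8.93 and 9.10 at S1, 8.90, 8.95 and 9.06 at S2, then 8.91, 8.97 and 8.95 at S3. The Mst1KO arrays of all stages thus lay beside the WT S3 arrays, above every WT S1 and S2 array, and the upper groups overlapped their neighbours in the order of means. Tgfbr2 rose 1.29-fold from S2 to S3 in WT (0.36 ± 0.08, SE, adjusted p = 0.00247), against -0.03 ± 0.08 in Mst1KO (adjusted p = 0.87), but the difference between these changes, -0.39 ± 0.11, did not pass (adjusted p = 0.163). The Mst1KO minus WT difference was 0.33 ± 0.08 at S1 (adjusted p = 0.0884, not called), 0.34 ± 0.08 at S2 (1.26-fold, adjusted p = 0.0475) and -0.05 ± 0.08 at S3 (adjusted p = 0.798). The S2 call was not robust: it was lost in 6 of 9 other settings and without any of the 6 arrays in turn (0.29 to 0.37, adjusted p = 0.0522 to 0.165).

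Tgfbr3, or betaglycan, which holds ligand at the cell surface and hands it to Tgfbr2, gave the largest genotype difference of the 10 genes. In WT it read 7.96, 7.96 and 7.79 at S1, 8.07, 7.62 and 7.76 at S2, then 7.23, 7.21 and 7.29 at S3. Mst1KO cells gave Tgfbr3 values of 7.73, 7.75 and 7.83 at S1, 7.52, 7.46 and 7.68 at S2, then 6.02, 5.62 and 5.97 at S3. The 3 Mst1KO S3 arrays lay more than a full log2 unit below every other array, and WT S3 was next, below all S1 and S2 arrays. From S2 to S3 Tgfbr3 fell 1.49-fold in WT (-0.58 ± 0.12, SE, adjusted p = 0.0022) and 3.21-fold in Mst1KO (-1.68 ± 0.12, adjusted p = 9.5e-08). At S3 it was 2.59-fold lower in Mst1KO than in WT (-1.37 ± 0.12, 95% interval -1.63 to -1.12, adjusted p = 5.05e-06), number 10 of all genes by p-value, and without any of the 6 arrays the difference stayed between -1.45 and -1.25. At S1 and S2 the differences were -0.14 ± 0.12 and -0.27 ± 0.12 (adjusted p = 0.735 and 0.355). The Mst1KO change was the more negative, with a difference between changes of -1.11 ± 0.17 from S2 to S3 (adjusted p = 0.00822) and -1.24 ± 0.17 from S1 to S3 (adjusted p = 0.00153), the former with an adjusted p of 0.0589 when only the groups compared were fitted.

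**Figure D1:**
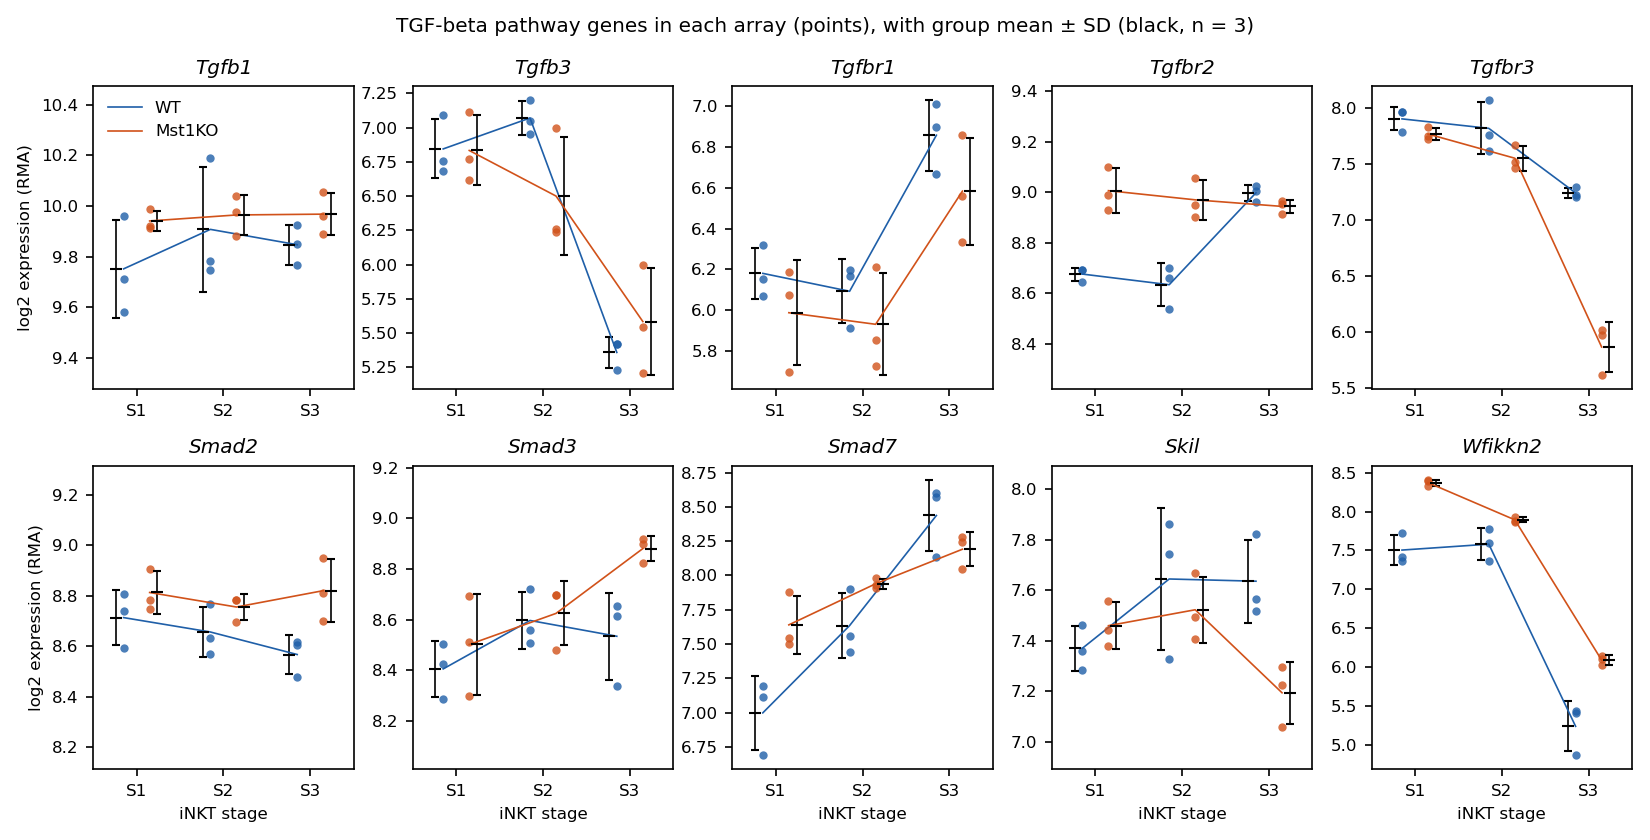
Log2 intensity of the 10 genes on every array (points) and group mean with SD (bars), by stage and genotype, with a separate vertical axis for each gene. Tgfbr3 is lowest on the 3 Mst1KO S3 arrays (5.62 to 6.02), and Wfikkn2 drops at S3 in both genotypes while Mst1KO stays above WT.

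In bulk samples a lower level in a group can come from fewer cells that express a gene or from less RNA per cell, and these cannot be told apart here. This holds for all results given for the 10 genes.

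Smad2 and Smad3, the SMADs that Tgfbr1 phosphorylates, had group means that spread over 0.25 and 0.48, against a median of 0.41 over all genes. Smad2 had group means from 8.57 ± 0.08 (SD, n = 3) at WT S3 to 8.82 ± 0.12 (SD, n = 3) at Mst1KO S3, and every group overlapped its neighbour in that order. Its S3 arrays read 8.48, 8.62 and 8.61 in WT and 8.70, 8.95 and 8.81 in Mst1KO, which do not overlap, but the difference of 0.25 ± 0.09 (SE) did not pass (adjusted p = 0.164). No stage difference of Smad2 passed either.

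Smad3 read 8.50, 8.42 and 8.29 at WT S1, 8.51, 8.72 and 8.56 at S2, then 8.61, 8.65 and 8.34 at S3. The Mst1KO values were 8.51, 8.30 and 8.69 at S1, 8.48, 8.70 and 8.70 at S2, then 8.92, 8.90 and 8.82 at S3. Mst1KO S3 was thus the highest group, above every other array, while the other groups overlapped their neighbours. Smad3 rose 1.3-fold from S1 to S3 in Mst1KO (0.38 ± 0.12, SE, adjusted p = 0.0214). This call was lost without Mst1KO S1 replicate 2 (0.28, adjusted p = 0.12), Mst1KO S3 replicate 1 (0.36, adjusted p = 0.0678) or Mst1KO S3 replicate 2 (0.37, adjusted p = 0.061). The S3 genotype difference of 0.35 ± 0.12 did not pass (adjusted p = 0.123).

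Smad7, the inhibitory SMAD, rose at each step in WT. It read 7.19, 6.69 and 7.11 at WT S1, 7.90, 7.44 and 7.56 at S2, then 8.60, 8.57 and 8.14 at S3, with no overlap between stages. In Mst1KO it read 7.50, 7.54 and 7.88 at S1, 7.93, 7.98 and 7.91 at S2, then 8.28, 8.24 and 8.05 at S3, also without overlap but over a narrower range. From S1 to S3 it rose 2.71-fold in WT (1.44 ± 0.16, SE, adjusted p = 2.2e-06) and 1.47-fold in Mst1KO (0.55 ± 0.16, adjusted p = 0.016). The difference between these rises, -0.89 ± 0.23, did not pass (adjusted p = 0.105), though without WT S3 replicate 3 it did (-1.04, adjusted p = 0.0346). At S1 and S2 every Mst1KO array lay above every WT array, by 0.64 ± 0.16 and 0.30 ± 0.16 in the mean, and neither difference passed (adjusted p = 0.101 and 0.432). At S3 the arrays of both genotypes overlapped, with a mean difference of -0.25 ± 0.16 that did not pass (adjusted p = 0.485).

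The step from S2 to S3 was called in WT (0.80 ± 0.16, SE, 1.74-fold, adjusted p = 0.00133) and not in Mst1KO (0.25 ± 0.16, adjusted p = 0.318). The step from S1 to S2 in WT (0.64 ± 0.16, 1.55-fold, adjusted p = 0.0335) lost its call without WT S1 replicate 2 (0.48, adjusted p = 0.162), WT S2 replicate 1 (0.50, adjusted p = 0.159) or WT S2 replicate 3 (0.67, adjusted p = 0.0611), and in a fit of these groups alone (adjusted p = 0.141). For Smad7 in Mst1KO, the S1 to S3 call was lost without replicate 1 or 2 of S1 or of S3, with adjusted p of 0.0525 to 0.067.

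Skil encodes SnoN, a repressor that holds SMAD target genes down. It read 7.46, 7.29 and 7.36 at WT S1, 7.86, 7.74 and 7.33 at S2, then 7.82, 7.52 and 7.57 at S3. Skil in Mst1KO was at 7.44, 7.56 and 7.38 at S1, 7.49, 7.67 and 7.41 at S2, then 7.23, 7.30 and 7.06 at S3. At S3 the Mst1KO arrays lay below all WT arrays, and Mst1KO S3 was the lowest group, but neighbours in the order of means overlapped throughout. The S3 difference of -0.44 ± 0.13 (SE) did not pass (adjusted p = 0.0745). It passed with the stricter filter on dim probe sets (adjusted p = 0.0443).

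Wfikkn2 encodes a secreted protein that binds myostatin and Gdf11, relatives of TGF-beta, and it fell the most with maturation. In WT it read 7.37, 7.42 and 7.73 at S1, 7.37, 7.59 and 7.78 at S2, then 5.41, 4.86 and 5.44 at S3. In Mst1KO it read 8.39, 8.33 and 8.40 at S1, 7.87, 7.93 and 7.88 at S2, then 6.14, 6.02 and 6.11 at S3. The S3 arrays were the lowest in each genotype, and at all 3 stages every Mst1KO array lay above every WT array. From S2 to S3 it fell 5.07-fold in WT (-2.34 ± 0.14, SE, adjusted p = 6.42e-09) and 3.49-fold in Mst1KO (-1.80 ± 0.14, adjusted p = 2.06e-07). The difference between these falls, 0.54 ± 0.20, did not pass (adjusted p = 0.285). On 17 of 18 arrays Wfikkn2 was above the array median; the array not above it was of WT S3, so the WT fold may understate the fall.

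Between genotypes, Wfikkn2 was higher in Mst1KO 1.82-fold at S1 (0.87 ± 0.14, SE, adjusted p = 0.016) and 1.8-fold at S3 (0.85 ± 0.14, adjusted p = 0.00259). At S2 the difference was 0.31 ± 0.14 and did not pass (adjusted p = 0.346). The S1 call was lost without any array of its comparison other than WT S1 replicate 3 (0.80 to 0.89, adjusted p = 0.0536 to 0.0813), while the S3 call kept its side in 6 of 6 such fits. In fits of the compared groups alone the adjusted p was 0.0676 at S1 and 0.0536 at S3. Within Mst1KO, the S1 and S2 arrays of Wfikkn2 did not overlap, and the difference of -0.48 ± 0.14 missed the threshold (adjusted p = 0.0529).

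Most calls among the 10 genes were between S3 and the earlier stages. From S1 to S2 in WT 1 of 10 members was higher (Smad7), against 3.84% of all genes called, and in Mst1KO none was, against 6.67% (limma). From S2 to S3 in WT 3 members rose (Tgfbr1, Tgfbr2, Smad7) and 3 fell (Tgfb3, Tgfbr3, Wfikkn2), against 23.6% of all genes. In Mst1KO 1 rose (Tgfbr1) and 3 fell (Tgfb3, Tgfbr3, Wfikkn2), against 17.2%. Over the whole course from S1 to S3, 3 rose and 3 fell in each genotype, against 33.8% of all genes in WT and 26.6% in Mst1KO, where the count of 6 was 3 without replicate 2 of Mst1KO S1 or of Mst1KO S3. Tgfbr1 and Smad7 rose and Tgfb3, Tgfbr3 and Wfikkn2 fell in both, while the remaining riser was Tgfbr2 in WT and Smad3 in Mst1KO.

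**Figure D2:**
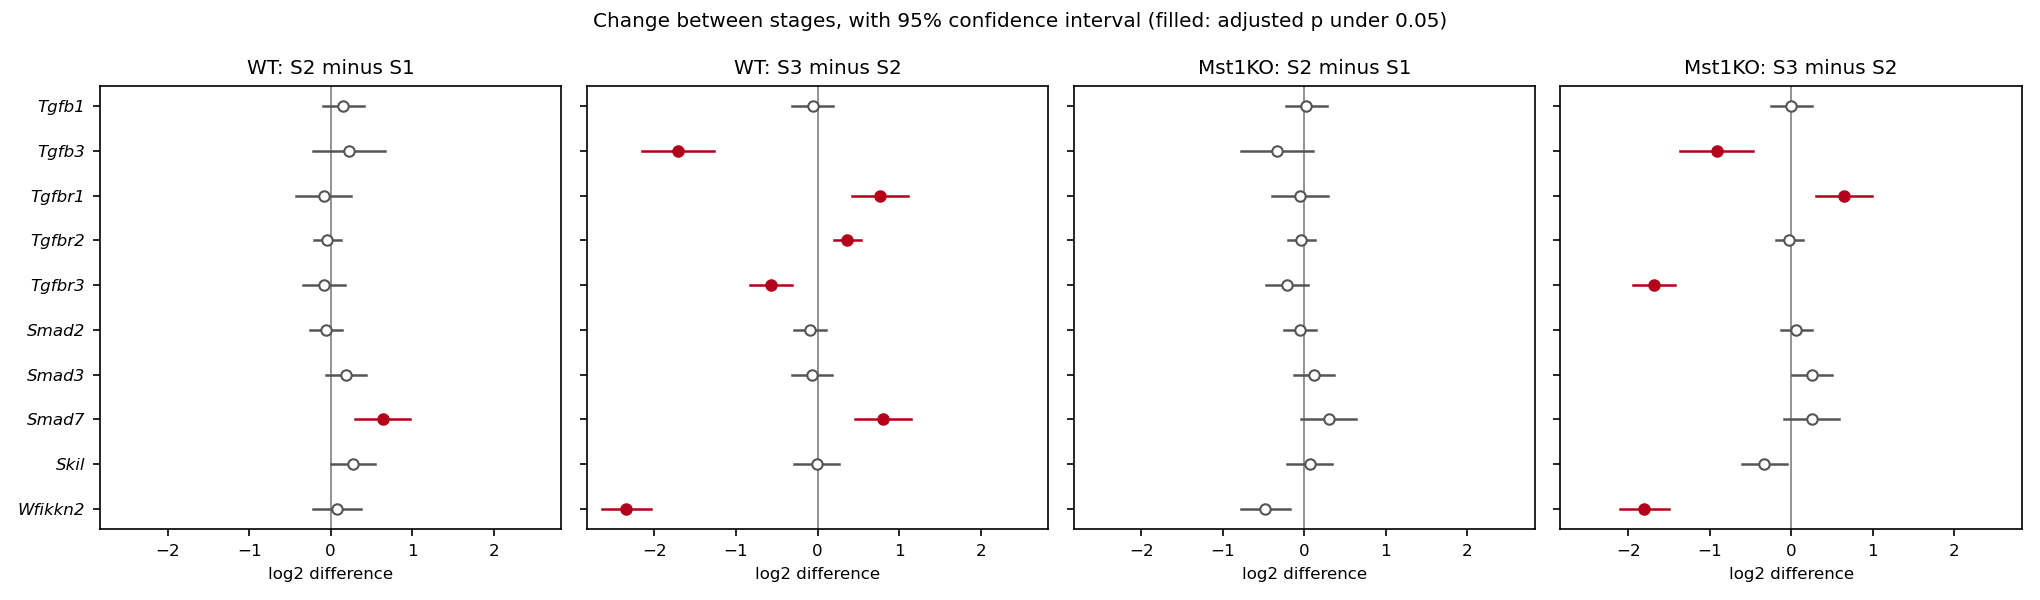
Log2 difference of each member between S2 and S1 and between S3 and S2, within WT and within Mst1KO, with its 95% interval. Filled points passed the test across all genes. Wfikkn2, Tgfb3 and Tgfbr3 lie below 0 and Tgfbr1 above it for S3 against S2 in both genotypes.

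Between genotypes 1 of 10 members was called at S1 (Wfikkn2 higher in Mst1KO), against 0.33% of all genes, and 1 at S2 (Tgfbr2 higher), against 1.17%. At S3 Wfikkn2 was higher and Tgfbr3 lower, against 3.4% of all genes. These shares rest on 43, 152 and 443 genes, which became 9 to 23, 39 to 160 and 200 to 369 when 1 array was left out. Arrays of both genotypes did not overlap for 3 members at S1 (Tgfbr2, Smad7, Wfikkn2), against 18.1% of all genes, for 3 at S2 (the same genes), against 16.8%, and for 5 at S3 (Tgfbr3, Smad2, Smad3, Skil, Wfikkn2), against 23% of all genes. Of the tests of a difference between stage changes, none of the 10 was called for S2 against S1 (0.0153% of all genes), and Tgfbr3 alone for S3 against S2 (0.368%) and for S3 against S1 (0.56%). The median size of the S3 genotype difference was 0.26 over the members and 0.13 over all genes. As the members were chosen with earlier results of these data known, that choice may partly set these contrasts with all genes.

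**Figure D3:**
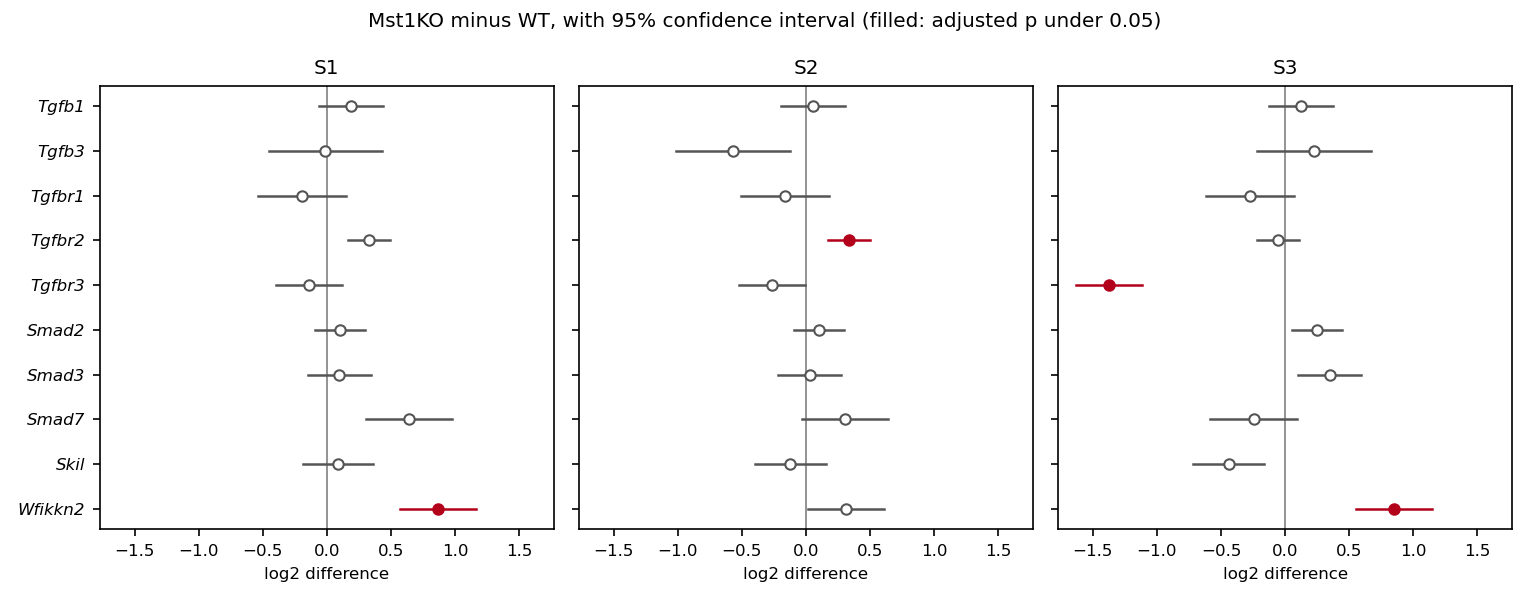
Log2 difference, Mst1KO minus WT, of each member at S1, S2 and S3 with its 95% interval; filled points passed the test across all genes. Tgfbr3 stands at -1.37 at S3, Wfikkn2 is above 0 at each stage, and Smad7 and Tgfbr2 are above 0 at S1 and S2 but not at S3.

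The members differed in how far their 6 group means spread. The range was 3.13 for Wfikkn2, 2.03 for Tgfbr3, 1.71 for Tgfb3, 1.44 for Smad7 and 0.92 for Tgfbr1, wider than in 99.1%, 96.9%, 95.6%, 93.8% and 86.1% of genes. It was 0.48 for Smad3, 0.45 for Skil, 0.37 for Tgfbr2, 0.25 for Smad2 and 0.22 for Tgfb1, against a median of 0.41 over all genes. Over the 18 arrays, which share their stage and genotype groups, Pearson's r was 0.854 between Tgfb3 and Wfikkn2, 0.701 between Tgfb3 and Tgfbr3 and -0.856 between Tgfbr1 and Wfikkn2. By the same measure over all genes, those most like Wfikkn2 were Runx1 (r = 0.969), Nme4 (0.969) and Il6ra (0.967). For Tgfb3 they were Cdc25c (0.946), Mboat7 (0.939) and Banf1 (0.933), and for Smad7 Ppp1r15a (0.944), Vps28 (0.935) and Ezh1 (0.933). The receptor Tgfbr1 was most like Dapk2 (0.932), Gm7265 (0.923) and Malt1 (0.895), and Tgfbr3 most like Slc25a23 (0.927), Sdf2l1 (0.896) and Notch2 (0.892). Likeness was lower for Tgfbr2, with Fam149b (0.851), Cytip (0.838) and Smg9 (0.83), and for Smad3, with Arrdc1 (0.841), Klhl6 (0.802) and S1pr4 (0.789). These values describe arrays of 6 groups and carry no test.

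Other genes of the pathway were followed as lists. Of 12 genes of ligand release and latency 6 were measured; Tgfb2, Lrrc32 and the activating integrins Itgb6 and Itgb8 were among those below the filter. Furin, the protease that cuts the TGF-beta precursor, rose from S1 to S2 in WT (0.89 ± 0.13, SE, adjusted p = 0.000691) and in Mst1KO (1.30 ± 0.13), and no gene of this list was called between genotypes. Among 8 measured other receptors of the family, Eng, or endoglin, an accessory receptor like Tgfbr3, fell 4.25-fold from S2 to S3 in WT (-2.09 ± 0.25, adjusted p = 1.21e-05). In Mst1KO 3 of the 8 fell at that step, Acvrl1 (-0.86 ± 0.14), Eng (-0.91 ± 0.25) and Acvr1 (-0.60 ± 0.17), against 17.2% of all genes called. The Mst1KO call of Eng was lost without Mst1KO S2 replicate 3 (adjusted p = 0.0763), Mst1KO S3 replicate 2 (0.0547) or Mst1KO S3 replicate 3 (0.101). That of Acvr1 was lost without Mst1KO S2 replicate 1 (-0.34, adjusted p = 0.0941) or Mst1KO S3 replicate 3 (-0.53, adjusted p = 0.08). Acvr1 was dim, with means of 4.99 at Mst1KO S2 and 4.39 at Mst1KO S3, against array medians of 4.81 to 4.93. Between genotypes Acvrl1 was the only gene of this list called, higher in Mst1KO at S2 (0.66 ± 0.14, adjusted p = 0.0243), a call lost without WT S2 replicate 1 or 3 or Mst1KO S2 replicate 1 or 2 (adjusted p = 0.0749 to 0.108).

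Of 15 measured other SMADs and SMAD regulators, 2 were lower in Mst1KO at S3 and none higher, against 3.4% of all genes called. Pmepa1, a TGF-beta target that takes part in shutting the pathway off, was one of them: its WT S3 arrays ran from 7.54 to 7.86 and Mst1KO S3 arrays from 6.91 to 7.03. That difference (-0.77 ± 0.15, SE, adjusted p = 0.00712) kept its call without any 1 of the 6 arrays. At S2 Pmepa1 was lower as well (-0.75 ± 0.15, adjusted p = 0.0191), a call lost without WT S2 replicate 3 (adjusted p = 0.0764), Mst1KO S2 replicate 1 (0.0855) or Mst1KO S2 replicate 2 (0.0602). Smad1, a carrier of bone morphogenetic protein signals, was lower at S3 (-0.54 ± 0.11, adjusted p = 0.00897), without Mst1KO S3 replicate 3 no longer called (-0.42, adjusted p = 0.0518). Smad4, the partner of Smad2 and Smad3, had group means of 8.81 to 9.16 and was not called between genotypes.

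Gdf11, a ligand that Wfikkn2 binds, was among 7 measured antagonists and their ligands. It rose 2.18-fold from S2 to S3 in WT (1.12 ± 0.17, SE, adjusted p = 0.000142), against 0.19 ± 0.17 in Mst1KO, and these changes differed by -0.93 ± 0.25, which did not pass (adjusted p = 0.138). At S3 it was lower in Mst1KO (-0.74 ± 0.17, adjusted p = 0.0269), where Wfikkn2 was higher. That Gdf11 call was lost without any array other than Mst1KO S3 replicate 2 (adjusted p = 0.0559 to 0.125). The myostatin gene, Mstn, did not give a value past the filter.

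Genes that TGF-beta is known to raise or lower in T cells were read as further lists. Of 12 measured genes that it raises, 6 rose and 1 fell from S1 to S2 in WT, against 3.84% of all genes called, with a median log2 difference of 0.37 against -0.01 over all genes. Among the risers were Rgs1, a brake on chemokine receptors (2.16 ± 0.25, SE), and Itgae, the integrin chain that binds E-cadherin (0.92 ± 0.15), and the 1 that fell was Id3 (-0.64 ± 0.13). Genes of the list that TGF-beta lowers also rose at this step in WT, and no gene of that list fell. The risers there were Tbx21 (1.21 ± 0.15), Gzmb (3.04 ± 0.48), Prf1 (1.04 ± 0.23) and Il12rb2 (2.46 ± 0.33). Between genotypes none of the 12 was called at S1 or S2. At S3 Itgae was lower (-0.75 ± 0.15, adjusted p = 0.00794) and Id3 higher (0.66 ± 0.13, adjusted p = 0.0104) in Mst1KO, each no longer called without Mst1KO S3 replicate 3 (adjusted p = 0.0526 and 0.0645). The median difference of these 12 at S3 was -0.19, against 0.01 over all genes, and 10 of the 12 were below 0.

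Of 10 measured genes that TGF-beta lowers, 6 rose and 2 fell from S2 to S3 in WT, against 23.6% of all genes called, and 7 rose and 2 fell in Mst1KO, against 17.2%. S1pr1, a sphingosine phosphate receptor needed for thymic egress, gave the largest S3 genotype difference of this list. It ran from 6.03 to 6.69 in WT S3 and from 8.67 to 8.96 in Mst1KO S3 (2.32 ± 0.16, SE, adjusted p = 4.7e-07), and its S2 to S3 change differed between genotypes (1.75 ± 0.23, adjusted p = 0.00191). Klf2, which drives S1pr1, was higher (0.78 ± 0.21, adjusted p = 0.0478) and Prf1, the perforin gene, lower (-0.89 ± 0.23, adjusted p = 0.0456) at S3. The Klf2 call was lost without WT S3 replicate 3 (adjusted p = 0.14), Mst1KO S3 replicate 1 (0.155) or replicate 3 (0.16), and the Prf1 call without any array other than WT S3 replicate 3 (0.0913 to 0.157). At S2 Il12rb2, a chain of the interleukin-12 receptor, was lower in Mst1KO (-1.97 ± 0.33, adjusted p = 0.00808). When only the groups compared were fitted, the S3 calls of Smad1, Itgae, Id3 and Klf2 and the S2 calls of Pmepa1, Acvrl1 and Il12rb2 were lost (adjusted p = 0.0536 to 0.205). Members of this list thus lay on both sides at S3, with a median of 0.06 against 0.01 over all genes.

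**Figure D4:**
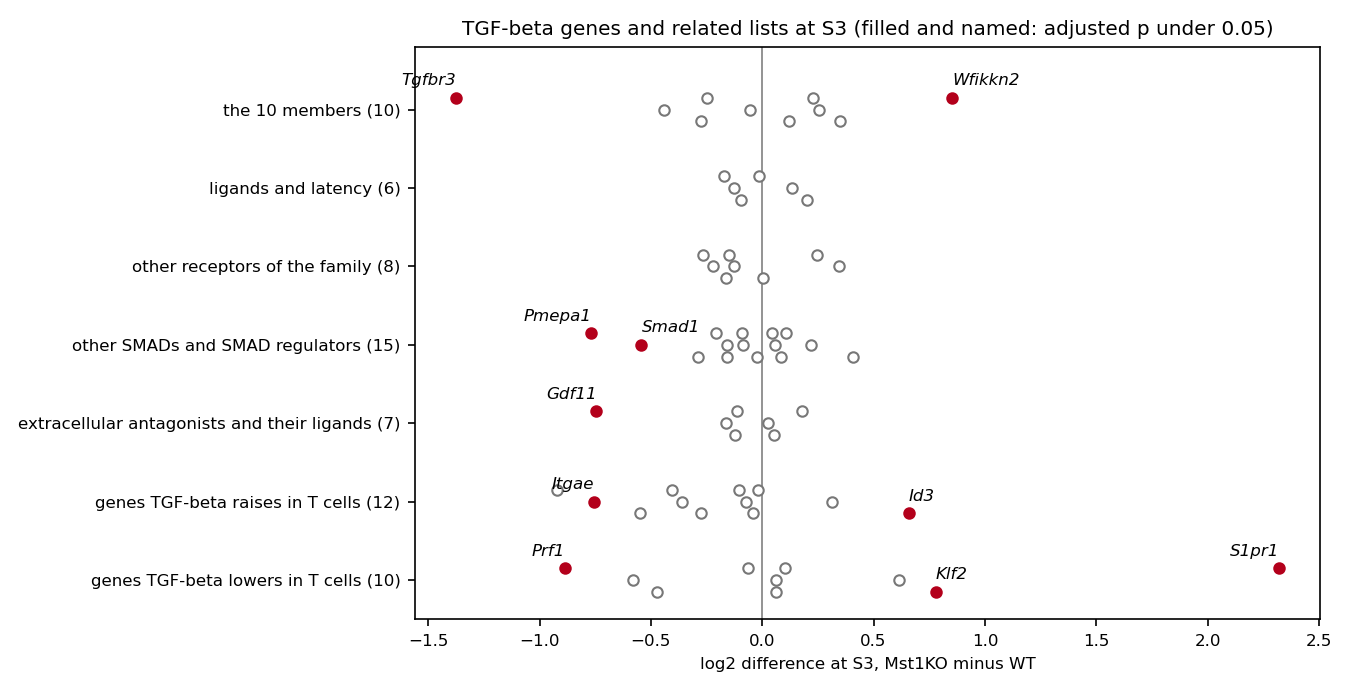
Log2 difference, Mst1KO minus WT, at S3 for each measured gene (points) of the 10 members and the 6 pathway lists, with the genes that passed the test across all genes filled and named. S1pr1 stands apart at 2.32, and Pmepa1, Smad1, Gdf11, Itgae and Prf1 lie below 0.

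Markers listed for other cell types moved with some of these groups. All cells were sorted for a T cell receptor beta chain and the CD1d tetramer. Whether the listed genes were read from other cells or from iNKT cells was not tested. At S3 the summed log2 level of 10 macrophage and dendritic cell markers was 63.1 to 64.3 in WT and 65.5 to 69.8 in Mst1KO, and 1 of 10 was called higher in Mst1KO (C1qb, 0.94 ± 0.23, SE). The C1qb call was lost without WT S3 replicate 1 or 2 or Mst1KO S3 replicate 2 or 3, with adjusted p up to 0.15. The sum of 3 gamma-delta T cell markers was 17.9 to 19.4 in WT S3 and 22.1 to 22.6 in Mst1KO S3, with Cd163l1 (1.03 ± 0.12) and Blk (2.39 ± 0.30) called higher. Of 4 measured NK and innate lymphoid markers, 1 was higher in Mst1KO at S3 (Tyrobp, 0.88 ± 0.19), while the sum over the list was 35.9 to 36.7 in WT and 35.6 to 37.1 in Mst1KO. The Tyrobp call was lost without WT S3 replicate 3 or Mst1KO S3 replicate 1 or 3, with adjusted p up to 0.0961. These differences run beside those of Tgfbr3 and Wfikkn2 at S3, and their part in them was not tested.

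At S2 the macrophage and dendritic cell sum was 58.0 to 59.1 in WT and 61.5 to 62.8 in Mst1KO, with 1 of 10 called higher (Itgax, 0.93 ± 0.18, SE, adjusted p = 0.0191), against 1.17% of all genes. Itgax was dim, with means of 3.98 in WT S2 and 4.91 in Mst1KO S2, against array medians of 4.81 to 4.93. The gamma-delta sum was 22.9 to 24.1 in WT S2 and 24.3 to 25.2 in Mst1KO S2. Cd163l1 was higher (0.64 ± 0.12, adjusted p = 0.0154) and Izumo1r, a regulatory T cell marker, lower (-0.59 ± 0.14, adjusted p = 0.0477) in Mst1KO at S2. The Itgax call was lost without WT S2 replicate 1 or 3 or Mst1KO S2 replicate 1 or 2 (adjusted p up to 0.0657), the Cd163l1 call without WT S2 replicate 3 or Mst1KO S2 replicate 1 (up to 0.0785), and the Izumo1r call without any array other than Mst1KO S2 replicate 3 (up to 0.169). With only the groups compared fitted, all 3 calls were lost (adjusted p = 0.101, 0.12 and 0.188). These run beside the S2 genotype differences of Tgfbr2, Acvrl1, Pmepa1 and Il12rb2, and their part in those was not tested.

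With stage, all 4 NK and innate lymphoid markers rose from S2 to S3 in WT, and 3 of 4 in Mst1KO. At the same step 4 of 10 macrophage and dendritic cell markers rose in WT and 5 of 10 in Mst1KO, while 2 of 3 gamma-delta markers fell in both. Of all genes, 23.6% were called at this step in WT and 17.2% in Mst1KO. Of 6 measured markers of immature and conventional T cells, 2 fell and 1 rose at this step in each genotype. Those that fell were Lef1 (-0.85 ± 0.12, SE, in WT and -0.68 ± 0.12 in Mst1KO) and Igfbp4 (-2.66 ± 0.15 and -2.82 ± 0.15). The summed log2 level of the list in WT was 53.4 to 54.6 at S2 and 50.03 to 51.02 at S3. In Mst1KO it was 53.1 to 55.0 at S2 and 50.6 to 51.6 at S3. From S1 to S2 in Mst1KO, 6 of 10 macrophage and dendritic cell markers rose (Lyz2, 2.25 ± 0.34, with C1qa, C1qb, C1qc, Itgax and Cst3), against 6.67% of all genes. The C1qa rise was lost without replicate 1 of Mst1KO S1 or S2 (adjusted p up to 0.062), and the Itgax rise without replicate 1 or 2 of either (up to 0.1). Itgax was dim at this step too, with means of 4.18 at Mst1KO S1 and 4.91 at Mst1KO S2. The part of these markers in the stage changes of the members was not tested. Of the B cell markers, Cd79a, Ms4a1, Pax5 and Ebf1 did not pass the filter, nor did the platelet genes Pf4 and Ppbp, the epithelial genes Epcam and Foxn1, and Foxp3. No measured marker of platelets, stroma or B cells was called between genotypes at S3.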

How the data were processed

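Total RNA of sorted thymic iNKT cells, 18 samples in 6 groups of 3, was amplified, labelled with biotin and hybridised to MoGene-2_0 arrays, per the labels. Per the submitters' processing notes, RMA in Affymetrix Expression Console 1.1 made the log2 values the authors deposited; RMA subtracts background, quantile-normalizes and summarizes probes, and compresses differences of dim probe sets. No source used here names the genome build.

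Of 41345 probe sets, 23521 carried 1 gene symbol in the platform annotation, 1814 several and 16010 none. Single-symbol probe sets above their array's median on at least 3 of 18 arrays were kept (13702), and the brightest per gene was tested (13034 genes, 513 with several). A means model of the 6 groups was fitted to all genes with limma 3.58.1 (R 4.3.3, lmFit and eBayes), with Benjamini-Hochberg adjustment over all genes for each of 12 comparisons: stages within genotype, genotypes within stage, and the difference between stage changes. The fit was tested on simulated data. Alternatives were no filter, a filter at the 75th percentile, quantile normalization repeated, median centring, variance trend with robust fit, array weights, only the groups compared, the replicate block, the probe sets of a gene averaged, and each array left out.

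The members and lists were chosen with earlier results of these data known, and the lists come from general knowledge of the pathway and cell types. Named were all 10 members, Stk4, up to 4 genes of each list with the lowest p in a comparison (others only with their values), and for each called member the 3 genes with the highest Pearson correlation to it over 18 arrays. Promoter sequences are RefSeq's.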

Additional observations from a re-analysis of the deposited data

Results flagged for a closer look

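Tgfbr3 was the only one of the 10 genes whose change with stage differed between genotypes by a test of the difference itself. From S2 to S3 the difference between the Mst1KO and the WT change was -1.11, and from S1 to S3 it was -1.24, both as log2 differences with the adjusted p-values given in the report. The values share their S3 arrays. Groups of 3 arrays were not tested for single samples that lie apart.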

How the results depend on the processing

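Over 48 pairs of a member and a comparison with an unadjusted p under 0.05, 9 alternatives gave 428 values, of which 410 kept their side of the threshold, 10 lost the call, 8 gained it and 0 reversed direction. Leaving out 1 array at a time gave 348 values, of which 322 kept their side, 25 lost the call and 1 gained it, with 0 reversed. For the genes of the lists and Stk4, 256 pairs gave 3842 values, with 309 calls lost, 3 gained and 0 reversed.

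The count of members called between genotypes at S2 was 1 and became 0 with no filter, with quantile normalization repeated, with median centring, with array weights and with only the groups compared. At S1 it was 1 and became 2 with the 75th-percentile filter (9 members tested, Tgfbr1 removed), 2 with the variance trend and robust fit, and 0 with only the groups compared. At S3 it was 2 and became 1 with only the groups compared. For S2 against S1 it was 0 in Mst1KO and became 1 with the 75th-percentile filter, array weights and only the groups compared, and 1 in WT and became 0 with only the groups compared, where fewer arrays estimate the spread. For the genotype difference in the S3 against S2 change it was 1 and became 0 with only the groups compared. Without 1 array the counts ran from 0 to 1 for WT S2 against S1, 6 to 6 for WT S3 against S2 and S3 against S1, 0 to 0, 3 to 4 and 3 to 6 for the same comparisons in Mst1KO, 0 to 1, 0 to 0 and 2 to 2 between genotypes at S1, S2 and S3, and 0 to 0, 1 to 1 and 1 to 2 for the differences between changes.

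Whether replicate numbers pair the samples was not settled by the data. The 45 correlations of same-numbered deviations ran from -0.0671 to 0.206, and 3 were over 0.1. Yet 15 of 18 arrays correlated best with their own number, a hint from the data and not from the labels. With the replicate block the member count became 0 between genotypes at S2 and 1 for Mst1KO S2 against S1, and it was 3 at S3 (Skil added, adjusted p = 0.0436). Over all genes the block moved the S2 against S1 difference between changes from 2 to 4.

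Counts over all genes also moved by over 1.5 times. Between genotypes at S1 the 43 became 28 with no filter, 93 with the 75th-percentile filter, 128 with the trend and robust fit, 93 with array weights and 5 with only the groups compared. At S2 the 152 became 248 with the trend and robust fit, 97 with array weights and 4 with only the groups compared, where at S3 the 443 became 184. Fitting only the groups compared also gave 195 in place of 501 (WT S2 against S1), 2037 in place of 3073 (WT S3 against S2) and 15 in place of 48 (difference in the S3 against S2 change). For the difference in the S3 against S1 change the 73 became 116 with the trend and robust fit and 123 with array weights. Without 1 array the counts moved by over 1.5 times in 6 of 6 fits between genotypes at S1 (9 to 23), in 2 of 6 at S2 (39 without Mst1KO S2 replicate 1, 72 without WT S2 replicate 3), and in 4 of 6 at S3 (200 to 289, without WT S3 replicate 1 or any Mst1KO S3 array). They did so in 3 of 6 for WT S2 against S1 (295 to 321, without WT S1 replicate 1 or 2 or WT S2 replicate 1) and 1 of 6 for Mst1KO S2 against S1 (530 without Mst1KO S2 replicate 1). The S2 against S1 difference between changes became 6 without WT S2 replicate 2 and 4 without Mst1KO S2 replicate 2. That of S3 against S2 became 93 without WT S3 replicate 3 and 25 without Mst1KO S3 replicate 3, and that of S3 against S1 111 without WT S3 replicate 3, 48 without Mst1KO S1 replicate 2 and 43 without Mst1KO S3 replicate 2. Where no construction of the alternative shows the cause, the cause was not tested. Dim signal limits Tgfb3 and Wfikkn2 at S3 in both genotypes, Tgfbr1 at S1 and S2 in both, and Tgfbr3 at Mst1KO S3, the lowest groups of these genes.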
